A study of Mus musculus with 10 samples.

Results

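The tricarboxylic acid cycle enzymes described here are 9 genes of the mitochondrial cycle, found by symbol among the 52636 gene rows of the deposited count table: Cs, Idh3a, Idh3b, Idh3g, Ogdh, Suclg1, Suclg2, Fh1 and Mdh2. All 9 passed the filter on low counts, with 15916 genes in all. With the DNMT3A R882H vector off for 14 days, Suclg2, Mdh2, Fh1 and Idh3b were called higher than with it on. Over all tested genes, 16.9% were called higher and 14.9% lower in that comparison. Of 19 alternative analyses, 19 kept the call of Suclg2, 18 that of Mdh2, 14 that of Fh1 and only 3 that of Idh3b. None of the 9 was called at day 5, where only 0.484% of all tested genes were called, so few genes of any kind passed. Suclg2, the GTP-specific subunit of succinyl-CoA ligase, had the largest difference of the 9, and Suclg1, the subunit it pairs with, had the smallest.

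Expression was measured in 10 libraries of mouse leukaemic progenitor cells from a model called DIN, in a series whose title concerns heme synthesis and cuproptosis, cell death that depends on copper, in acute myeloid leukaemia. Cells of every group derive from fetal liver cells that received 3 MSCV retroviral vectors, carrying DNMT3A R882H, IDH2 R140Q and NRAS G12D, so IDH2 R140Q and NRAS G12D are shared by all groups. Frozen cells from sick primary recipients were moved into Ptprca recipient mice, which then had doxycycline in chow and water, shutting off DNMT3A R882H ("off"), or normal chow and water ("on"), for 5 or 14 days. The cKit+/Cd11b- fraction was then sorted from marrow and spleen. The labels give 4 libraries for day 14 off, while day 14 on, day 5 on and day 5 off have 2 apiece. They do not say which tissue or mouse a library came from, so p-values measure only the spread between these libraries, which may be technical. There was no group with doxycycline and no regulated vector, so effects of the drug itself and of the vector cannot be told apart. The sort as labelled names no reporter of the vectors.

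The cycle oxidises the acetyl group of acetyl-CoA to carbon dioxide and passes the electrons to the respiratory chain. Citrate synthase starts it, isocitrate dehydrogenase and the alpha-ketoglutarate dehydrogenase complex carry out the decarboxylations, and succinyl-CoA ligase, succinate dehydrogenase, fumarase and malate dehydrogenase return succinyl-CoA to oxaloacetate. Succinyl-CoA is also the substrate from which heme synthesis starts, and alpha-ketoglutarate is the substrate that IDH2 R140Q turns into a different metabolite, D-2-hydroxyglutarate.

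The sequences below show the start regions of Suclg2, which had the largest difference at day 14, of Fh1, which was called with a smaller one, and of Cs, which was not called. They are the 250 bases before the RefSeq start on GRCm38.p6, read on the gene's strand, from chr6:95718847-95719096 (minus strand), chr1:175625636-175625885 (minus strand) and chr10:128337477-128337726 (plus strand). Windows and motifs were picked after expression values were known. Capitals mark matches on either strand to the GC box GGGCGG and the CCAAT box CCAAT.
Suclg2: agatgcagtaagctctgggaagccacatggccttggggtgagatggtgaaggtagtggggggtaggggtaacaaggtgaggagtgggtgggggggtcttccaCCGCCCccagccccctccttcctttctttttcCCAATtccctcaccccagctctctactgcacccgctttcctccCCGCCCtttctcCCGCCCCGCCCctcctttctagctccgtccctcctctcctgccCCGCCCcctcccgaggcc
Fh1: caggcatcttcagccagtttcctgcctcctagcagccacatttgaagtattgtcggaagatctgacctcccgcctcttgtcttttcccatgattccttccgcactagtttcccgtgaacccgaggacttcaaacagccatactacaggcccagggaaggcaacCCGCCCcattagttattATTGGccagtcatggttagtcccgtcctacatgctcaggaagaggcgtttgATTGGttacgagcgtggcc
Cs: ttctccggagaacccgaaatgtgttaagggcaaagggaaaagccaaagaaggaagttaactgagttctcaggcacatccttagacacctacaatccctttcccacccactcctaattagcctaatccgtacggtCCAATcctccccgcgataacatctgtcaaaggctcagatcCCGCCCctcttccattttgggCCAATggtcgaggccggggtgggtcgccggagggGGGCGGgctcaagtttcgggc
The Suclg2 window held 5 GC boxes and 1 CCAAT box at a GC content of 64.4%, the Fh1 window 1 and 2 at 52.8%, and the Cs window 2 and 2 at 55.2%. Among 32851 RefSeq windows of the same length, 32.7% held a GC box and 33.8% a CCAAT box, and the median GC content was 52.4%. In all, 13 windows were listed for 8 of the 9 genes. Of the other motifs searched, the cAMP element TGACGTCA (in 1.55% of all windows) lay in the Mdh2 window and in 3 overlapping Ogdh windows. The ETS motif CCGGAAG (6.91%) lay in the Idh3g window, and the E-box CACGTG (6.02%) in 3 Ogdh windows wholly inside the gene. Of those E-box windows, the ones starting at 6292308 and 6292329 overlap each other. The palindromic NRF1 core of 10 bases (0.782%) and the GATA motif AGATAA (9.99%) had no match in the 13 windows. A match to these letters is a description and no measured binding site.

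Total counts ran from 9292644 to 14340624 per library, so that 3 counts, the limit a count of 0 allows, correspond to 0.209 to 0.323 CPM, counts scaled to a common library size. Log2 CPM correlated across genes at 0.953 to 0.983 within groups and at 0.897 to 0.970 between groups. Genes at ribosomal RNA loci took 7.78% to 16.5% of the counts. The levels below are CPM scaled by the trimmed mean of M values (TMM), and counts come from 3′ ends, so levels of different genes are not ranked. Each fold change is a log2 value with a standard error derived from edgeR's quasi-likelihood F test. That error is the absolute log2 value over the square root of F, and 95% intervals were built from it with the t distribution. A gene is called at a Benjamini-Hochberg adjusted p under 0.05 over all 15916 tested genes. In these bulk samples, fewer cells of a type and less RNA per cell cannot be told apart.

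**Figure D1:**
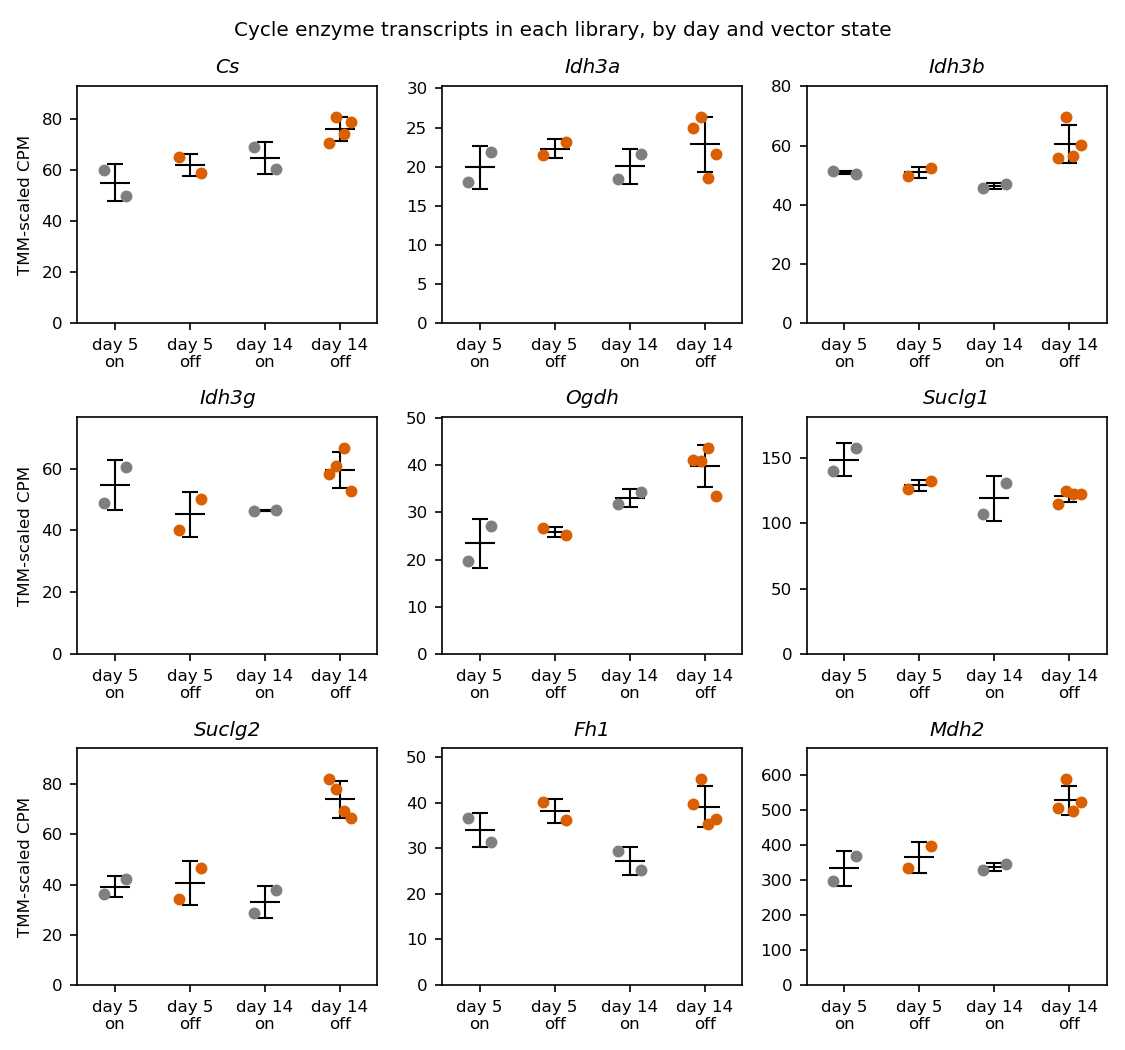
TMM-scaled CPM of the 9 enzymes (vertical axes, from 0) in each library (points), by day and vector state (horizontal axes), with lines for the mean and bars for 1 SD. In Suclg2 and Mdh2, the 4 day 14 off libraries lie above the other 6, at 66.4 to 82.0 and 496 to 588 CPM.

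At day 14 the enzymes were on the higher side with the vector off. Of the 9, 4 were called higher and 0 lower, beside 16.9% of all tested genes called higher, 14.9% lower and 31.8% in either direction. All 9 log2 fold changes were above 0, with a median of 0.36 and a range of 0.02 to 1.16, while the median over all tested genes was 0.01 and 50.6% of them lay above 0. In 6 of the 9 the lowest off library lay above the highest on library, against 27.9% of all genes, and in none did the off libraries lie wholly below, against 24.6%. The summed CPM of the 9 was 982 to 1114 in the day 14 off libraries and 704 to 749 in the day 14 on libraries. At day 5 the sums were 736 to 820 off and 708 to 809 on, so that the day 14 off libraries stood above all others.

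Cs, citrate synthase, joins acetyl-CoA to oxaloacetate and opens the cycle (ENSMUSG00000005683, chromosome 10, 128337734 to 128362479, mm10, plus strand). It read 70.4, 80.7, 73.9 and 78.9 CPM at day 14 off, against 68.9 and 60.2 at day 14 on. At day 5 it read 64.9 and 58.8 CPM off and 60.0 and 49.8 on. The day 14 off libraries thus lay above the other 6, but by a margin that did not pass the test against day 14 on (0.23 ± 0.13, edgeR adjusted p = 0.199). The 95% interval of that difference ran from -0.05 to 0.52.

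The NAD-dependent isocitrate dehydrogenase makes alpha-ketoglutarate, with a catalytic subunit from Idh3a and regulatory subunits from Idh3b and Idh3g. Idh3b (ENSMUSG00000027406, chromosome 2, 130279309 to 130284547, minus strand) read 55.8, 69.7, 56.6 and 60.1 CPM at day 14 off, against 45.5 and 47.0 at day 14 on. Its day 5 levels were 49.6 and 52.3 CPM off and 51.4 and 50.5 on, between the day 14 groups. Its day 14 difference of 0.39 ± 0.13 was called (edgeR adjusted p = 0.0419), but the call was kept in only 3 of 19 alternative analyses, with adjusted p-values from 0.0429 to 0.244. The last 5 bases of Idh3b overlap the end of Nop56, a ribosome biogenesis gene on the opposite strand (chromosome 2, 130279309 to 130279313). The strand setting of the counting is not given in the sources used here. Nop56 also rose at day 14 (0.86 ± 0.16, edgeR adjusted p = 0.00245), from 95.3 to 113 CPM on to 153 to 214 CPM off. At day 5 Nop56 read 172 to 204 CPM, above its day 14 on level, and the part of such reads in the Idh3b row was not tested.

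Idh3g (ENSMUSG00000002010, chromosome X, 73778963 to 73786897, minus strand) read 58.3, 60.8, 66.7 and 52.8 CPM at day 14 off, against 46.2 and 46.6 at day 14 on. The groups did not overlap, and the difference of 0.36 ± 0.15 had a 95% interval of 0.03 to 0.70 but an edgeR adjusted p = 0.0935. At day 5 its levels had the opposite order, 40.1 and 50.2 CPM off against 48.9 and 60.4 on, with overlap (-0.28 ± 0.17, edgeR adjusted p = 0.502). Idh3a (ENSMUSG00000032279, chromosome 9, 54586334 to 54604661, plus strand) read 24.9, 26.4, 18.5 and 21.6 CPM at day 14 off and 18.4 and 21.6 on, and 21.4 and 23.1 off and 18.0 and 21.9 on at day 5. These groups overlapped at both days, and the day 14 difference was 0.19 ± 0.18 (edgeR adjusted p = 0.462).

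Ogdh encodes the first enzyme of the alpha-ketoglutarate dehydrogenase complex, which forms succinyl-CoA (ENSMUSG00000020456, chromosome 11, 6291633 to 6356642, plus strand). It read 41.1, 40.9, 43.6 and 33.4 CPM at day 14 off, against 31.7 and 34.3 at day 14 on. Replicate 4 of the off group lay among the on libraries, and the difference was 0.27 ± 0.16 (edgeR adjusted p = 0.242). The day 5 levels were lower in both states, at 26.6 and 25.2 CPM off and 19.8 and 27.0 on. Ogdh was therefore ordered by day rather than by vector state: each day 14 library lay above each day 5 library.

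Succinyl-CoA ligase turns succinyl-CoA into succinate while making GTP or ATP. Its alpha subunit comes from Suclg1, and the beta subunit that pairs with it sets the nucleotide, GTP for Suclg2 and ATP for Sucla2. Suclg2 (ENSMUSG00000061838, chromosome 6, 95473009 to 95718800, minus strand) read 82.0, 77.8, 69.2 and 66.4 CPM at day 14 off, against 28.5 and 37.7 at day 14 on. At day 5 it read 34.3 and 46.7 CPM off and 36.1 and 42.0 on. The 4 day 14 off libraries stood clear of the other 6, which overlapped each other. The day 14 rise was 1.16 ± 0.18, or 2.23-fold (95% interval on the log2 scale 0.76 to 1.56, edgeR adjusted p = 9.36e-04), and it was called in all 19 alternative analyses. A processed pseudogene, Gm15163, matches the last 300 bases of the Suclg2 transcript at 99.3% identity, but it held 22 counts over all libraries against 6224 for Suclg2.

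Suclg1 (ENSMUSG00000052738, chromosome 6, 73248382 to 73276911, plus strand) read 115, 125, 123 and 123 CPM at day 14 off, against 107 and 131 at day 14 on. At day 5 it read 126 and 132 CPM off and 140 and 158 on. The day 14 off libraries lay between the day 14 on libraries, with a difference of 0.02 ± 0.12 (95% interval -0.25 to 0.30, edgeR adjusted p = 0.896), whose sign turned under RLE scaling (-0.0028). The upper end of this interval lies below the lower end of the interval for Suclg2.

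Fh1, fumarase, hydrates fumarate to malate (ENSMUSG00000026526, chromosome 1, 175600374 to 175625635, minus strand). It read 39.6, 45.2, 35.2 and 36.3 CPM at day 14 off, against 29.4 and 25.1 at day 14 on, a called difference of 0.52 ± 0.16 (edgeR adjusted p = 0.0258). The day 5 levels were 40.0 and 36.3 CPM off and 36.6 and 31.4 on. Unlike Suclg2, Fh1 was at a like level in the day 14 off and day 5 off libraries, and it was the day 14 on libraries that lay below all other libraries. The call was lost with no low-count filter (adjusted p = 0.0741), without day 14 off replicate 1 (0.0669) or 2 (0.0780), and without day 14 on replicate 1 (0.0693) or 2 (0.179). The gene's span overlaps Kmo on the opposite strand with no shared exon base, and Kmo moved the other way (-2.16 ± 0.37).

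Mdh2, mitochondrial malate dehydrogenase, regenerates oxaloacetate and serves the malate-aspartate shuttle (ENSMUSG00000019179, chromosome 5, 135778480 to 135790398, plus strand). It read 506, 588, 496 and 520 CPM at day 14 off, against 328 and 345 at day 14 on. At day 5 it read 333 and 395 CPM off and 297 and 368 on. As in Suclg2, the day 14 off libraries lay above the other 6, and the day 14 rise was 0.65 ± 0.14, or 1.57-fold (edgeR adjusted p = 0.00493). The call was lost in 1 of 19 alternatives, without day 14 on replicate 1 (adjusted p = 0.0686).

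**Figure D2:**
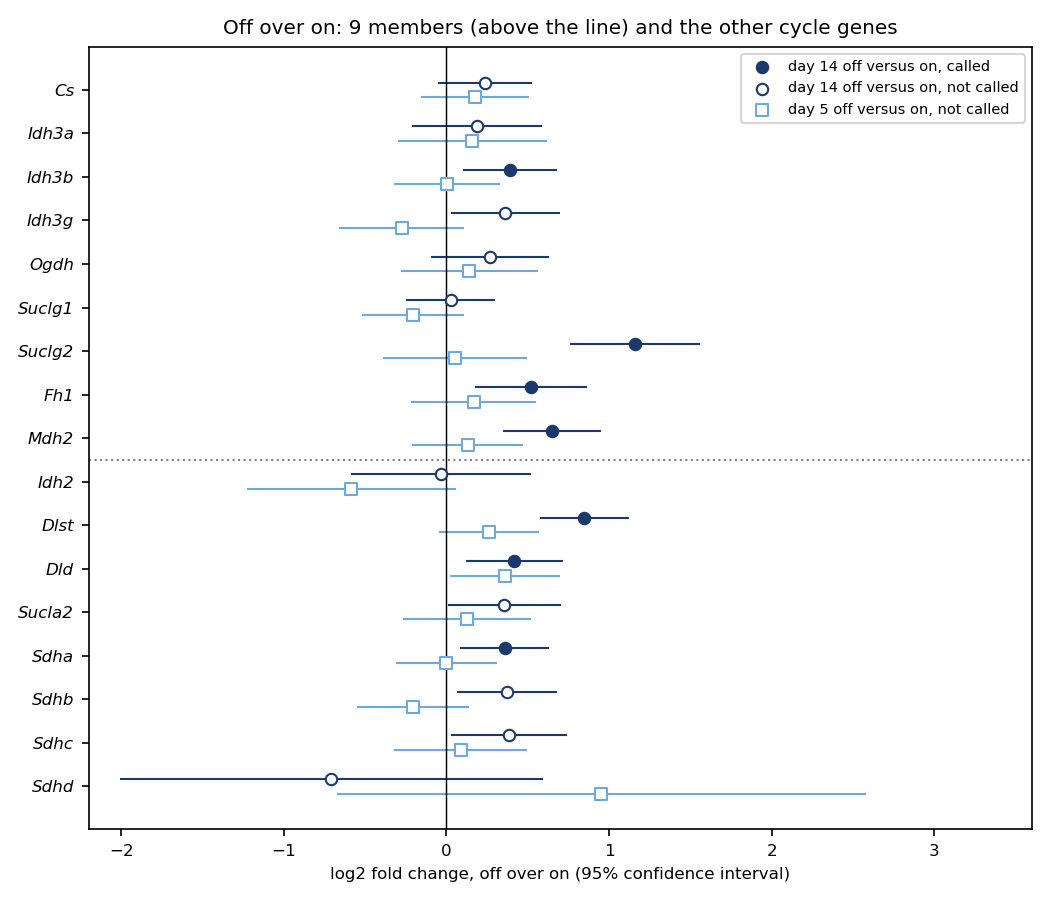
Log2 fold changes, off over on, with 95% confidence intervals derived from edgeR's F statistic (horizontal axis). The 9 enzymes lie above the dotted line and 8 further cycle genes below it. Filled circles are called at day 14, open circles are not, and open squares are day 5, where no gene shown was called. Suclg2 has the largest day 14 value, 1.16, and Sdhd the widest intervals.

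At day 5 the 9 enzymes did not pass the test in either direction. In this comparison edgeR called 0.371% of all tested genes higher and 0.113% lower, 0.484% in all, and 0 of the 9 enzymes. DESeq2 also called 0 of 9, beside 3.28% of the genes it gave an adjusted p, and limma voom called no gene at all, so its 0 of 9 says nothing about the enzymes. At an unadjusted p under 0.05 the count was also 0 of 9, beside 2374 of 15916 genes. The log2 fold changes ran from -0.28 (Idh3g) to 0.17 (Cs), with 7 above 0 and a median of 0.13. Suclg2 had a difference of 0.05 ± 0.20 (95% interval -0.39 to 0.49) and Mdh2 of 0.13 ± 0.15 (-0.21 to 0.47). The Suclg2 interval ended below its day 14 interval (0.76 to 1.56), while that of Mdh2 overlapped its day 14 interval (0.35 to 0.95). Suclg1 was the single enzyme whose groups did not overlap, with lower levels off (-0.21 ± 0.14, edgeR adjusted p = 0.549). Over all genes, 19.3% had their off libraries wholly above and 20.9% wholly below the on libraries.

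Whether the off effect differed between the days was tested directly. None of the 9 was called by edgeR, beside 1.65% of genes called with a higher effect at day 14, 1.41% with a lower one and 3.06% in all. At an unadjusted p under 0.05 the count was 3 of 9, for Suclg2, Idh3g and Mdh2, beside 3681 of 15916 genes. DESeq2 called 1 of 9, beside 9.65% of the genes it gave an adjusted p, and limma voom 0, beside 2.56% of all genes. The effect on Suclg2 was larger at day 14 by 1.11 ± 0.27 (95% interval 0.52 to 1.69, edgeR adjusted p = 0.0518). Its adjusted p ran from 0.00847 to 0.232 over 18 alternatives, of which 6 called it. Idh3g followed with 0.64 ± 0.23 (adjusted p = 0.136) and Mdh2 with 0.52 ± 0.21 (adjusted p = 0.168).

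In the model of both days together, 1 of the 9 was called higher and 0 lower, beside 9.87% and 9.94% of all genes, 19.8% in all. That gene was Mdh2, at 0.42 ± 0.13 (edgeR adjusted p = 0.0465, 0.00931 to 0.190 over 18 alternatives, of which 7 called it). Suclg2 at 0.67 ± 0.22 (adjusted p = 0.0533) and Fh1 at 0.37 ± 0.13 (adjusted p = 0.0721) fell short of the threshold.

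The days were also compared within each state; these contrasts share the day 14 off or day 14 on libraries with those above. Between day 5 and day 14 with the vector off, 3 of 9 enzymes rose and 0 fell, beside 10.1% of genes called higher, 6.94% lower and 17% in all. The 3 were Suclg2 (0.87 ± 0.18, edgeR adjusted p = 0.00950), Mdh2 (0.53 ± 0.14, adjusted p = 0.0237) and Ogdh (0.62 ± 0.17, adjusted p = 0.0295). These calls were lost without day 5 off replicate 1, as were most calls over all genes, in a fit that left the group 1 library. Without day 5 off replicate 2 only the Suclg2 call remained, and calls over all genes fell there too. Without day 14 off replicate 1 or 2, 1 call remained, that of Suclg2, beside 9.93% and 10.9% of all genes called. In 6 of 9 the day 14 off libraries lay wholly above the day 5 off libraries and in 1, Suclg1, wholly below, beside 24.2% and 21.5% of all genes.

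With the vector on, no enzyme was called between day 5 and day 14 by edgeR, beside 0.968% of genes called higher, 1.36% lower and 2.32% in all. DESeq2 and limma voom called 0 of 9 too, beside 8.85% of the genes with a DESeq2 adjusted p and 1.57% of all genes with limma voom. At an unadjusted p under 0.05 the count was 2 of 9, beside 3254 of 15916 genes, for Ogdh (0.49 ± 0.19, edgeR adjusted p = 0.176) and Suclg1 (-0.32 ± 0.14, adjusted p = 0.231). The day 14 on libraries lay wholly above the day 5 on libraries in 2 of 9, Cs and Ogdh, and wholly below in 4, Idh3b, Idh3g, Suclg1 and Fh1, beside 20.6% and 23.1% of all genes. Suclg2 read -0.24 ± 0.20 and Mdh2 0.02 ± 0.15 in this comparison, so neither passed the test with time alone.

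**Figure D3:**
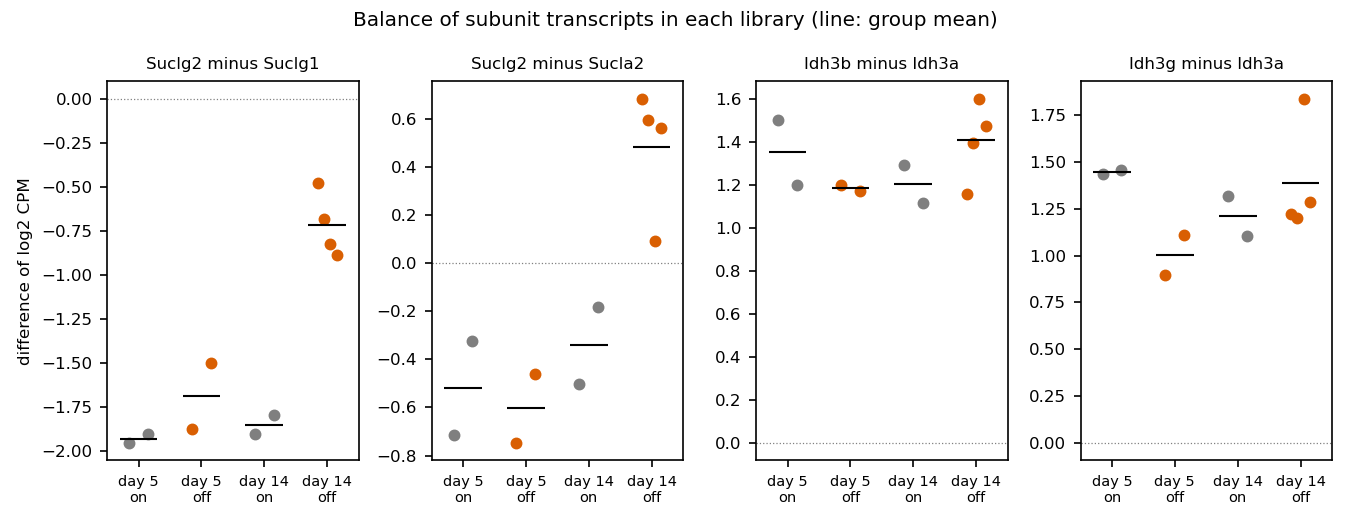
Differences of log2 CPM between subunit genes (vertical axes) in each library (points), by day and state, with lines for group means. For Suclg2 minus Suclg1 the 4 day 14 off libraries lie at -0.89 to -0.48 and the other 6 at -1.95 to -1.50.

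Ratios within a library show how the subunits changed against each other; they are described with no test. The ratio of Suclg2 to Suclg1 CPM was 0.541 to 0.716 in the day 14 off libraries, against 0.266 and 0.287 at day 14 on. At day 5 it was 0.272 and 0.353 off and 0.258 and 0.266 on. The ratio of Suclg2 to Sucla2, the GTP to the ATP beta subunit, was 1.06 to 1.61 at day 14 off and 0.595 to 0.882 in the other 6 libraries. Both ratios thus set the day 14 off libraries apart, with no overlap. Idh3b over Idh3a overlapped between all groups, with log2 differences of 1.12 to 1.60. Idh3g minus Idh3a was 1.20 to 1.84 at day 14 off (1.10 and 1.32 on) and, at day 5, 0.90 and 1.11 off (1.43 and 1.46 on). A ratio shows unequal change and not which gene changed, and CPM ratios of 3′ counts are not ratios of protein.

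Over the 10 libraries, which share 4 groups, 30 of the 36 pairs of enzymes had a Pearson r above 0, with a median of 0.55, and 24 of 36 did for deviations from the group means. The highest was 0.95, between Suclg2 and Mdh2, and 0.67 for the deviations. The lowest was -0.74, between Cs and Suclg1, and -0.55 for the deviations. Cs was among the genes whose signs turned within groups, for example from 0.59 to -0.75 with Suclg2, from 0.70 to -0.42 with Mdh2 and from 0.66 to -0.66 with Ogdh. Among 6293 other protein-coding genes, the levels most like those of Suclg2 over the 10 libraries were those of Trmt61a, a tRNA methyltransferase subunit (r = 0.986), Mthfd1, a folate enzyme (0.985), and Mrpl38, of the mitochondrial ribosome (0.984). For Mdh2 they were Tsn, translin (r = 0.993), Lig1, a DNA ligase (0.990), and Glrx5, a mitochondrial iron-sulfur glutaredoxin (0.989). For Cs they were Asap1 (r = 0.968), Plxnc1 (0.947) and Gm49388 (0.944). These 9 genes share the libraries' depth and groups, and the r values are descriptions.

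Further cycle genes were taken as a list of 9. Ogdhl had no count in any library, which allows up to 0.323 CPM in the shallowest. Of the other 8, 3 rose at day 14 and 0 fell, with a median of 0.37, beside 16.9% of all tested genes called higher and 14.9% lower. Dlst, the lipoylated core of the alpha-ketoglutarate dehydrogenase complex, read 98.8, 110, 106 and 103 CPM off and 62.1 and 54.2 on (0.85 ± 0.12, edgeR adjusted p = 6.20e-04). Dld, the lipoamide dehydrogenase subunit of several complexes, rose by 0.42 ± 0.14 (adjusted p = 0.0373) and Sdha, the flavoprotein of succinate dehydrogenase, by 0.36 ± 0.12 (adjusted p = 0.0477). Thus the first enzyme of the complex, Ogdh, did not pass the day 14 test while its partners Dlst and Dld did, and no test compared them. The alternative analyses were read out for the 9 enzymes only. Whether the calls of Dlst, Dld and Sdha hold in them was not tested.

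Sucla2 read 51.1, 51.5, 65.0 and 45.0 CPM at day 14 off and 40.4 and 42.7 on (0.36 ± 0.16, edgeR adjusted p = 0.111). Sdhb (0.37 ± 0.14, adjusted p = 0.0617) and Sdhc (0.38 ± 0.16, adjusted p = 0.0946) had values like that of Sdha without a call. Idh2, the NADP-dependent isocitrate dehydrogenase, had a difference of -0.03 ± 0.25 (adjusted p = 0.932). Every group carries the IDH2 vector, and whether its reads reach the mouse row was not tested. Sdhd, a membrane anchor of succinate dehydrogenase, ranged from 3.30 to 27.6 CPM over the libraries and from 4.75 to 27.6 CPM within the day 14 off group (-0.71 ± 0.58 at day 14, adjusted p = 0.391). At day 5 edgeR called none of these 8 genes, and 1, Dld, had an unadjusted p under 0.05. Between day 5 and day 14 off, Dlst (0.83 ± 0.12) and Sdha (0.47 ± 0.12) rose, and over both days Dlst (0.59 ± 0.13) and Dld (0.39 ± 0.11) were higher off.

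**Figure D4:**
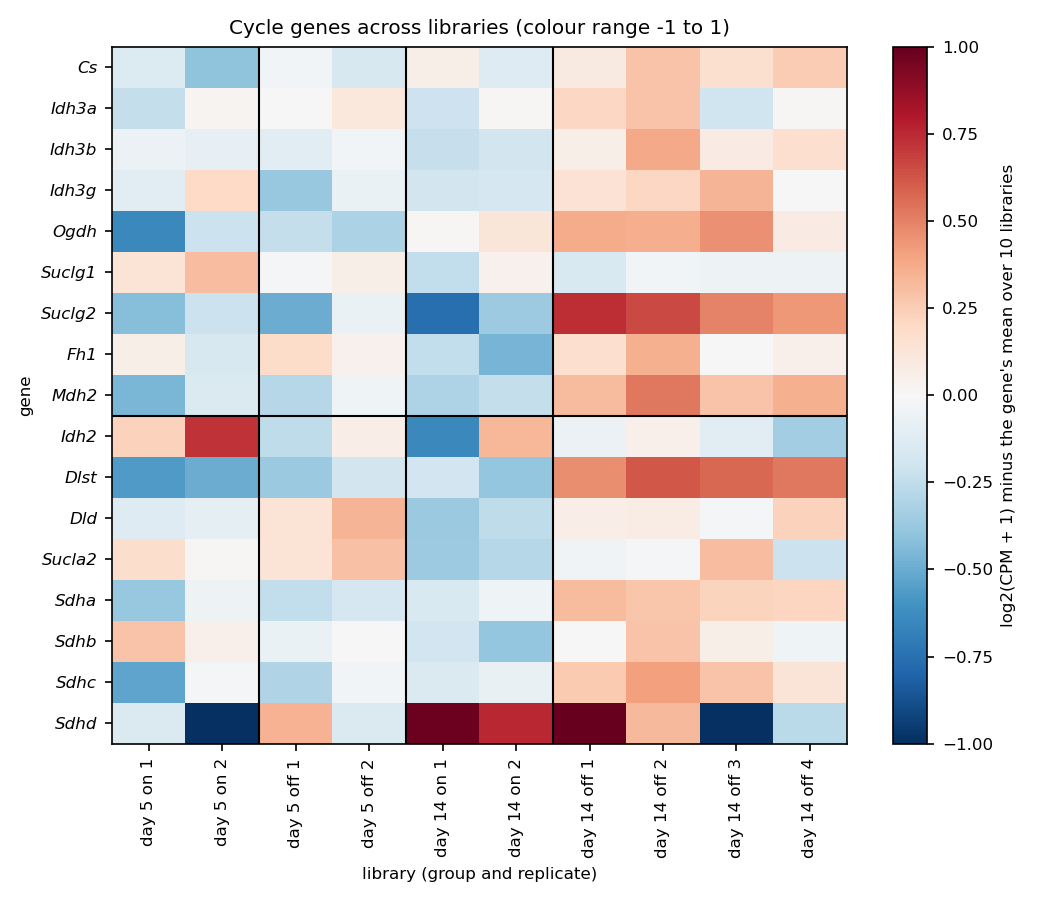
Cycle genes (rows, the 9 enzymes above the line) in each library (columns), coloured by log2(CPM + 1) minus the gene's mean over the 10 libraries, red above and blue below it. Sdhd values beyond the colour range are drawn in its end colours. The day 14 off columns are red for Suclg2, Mdh2 and Dlst, and Suclg1 shows no such block.

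Genes that feed or drain the cycle were mixed at day 14. Over all tested genes 16.9% were called higher, 14.9% lower and 31.8% in either direction, and the counts of these lists lie near or below that share. Of 15 genes for pyruvate entry, 4 were called higher and 1 lower, with a median of 0.25. At day 5, 1 of the 15 was called lower and 0 higher, beside 0.113% and 0.371% of all genes. Those called higher were Pdhx (0.72 ± 0.19) and Dlat (0.69 ± 0.18), subunits of pyruvate dehydrogenase, with Dld, and pyruvate carboxylase, Pc (1.11 ± 0.36). Pdp1, a phosphatase that activates pyruvate dehydrogenase, fell by 2.12 ± 0.18 on the log2 scale (edgeR adjusted p = 4.98e-05). Of 14 tested genes for carbon exchange and cytosolic partners, 2 rose and 0 fell, with a median of 0.16: Gls2, a glutaminase (2.08 ± 0.30), and Pck2, mitochondrial phosphoenolpyruvate carboxykinase (1.03 ± 0.20). Of 4 succinate dehydrogenase assembly genes, with a median of 0.14, 1 rose, Sdhaf4 (0.81 ± 0.21). Of 7 tested mitochondrial carriers, with a median of 0.45, 1 rose, the dicarboxylate carrier Slc25a10 (1.03 ± 0.23), and 1 fell, the aspartate-glutamate carrier Slc25a13 (-0.58 ± 0.18).

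Other cell programmes moved with the enzymes at day 14, and their part in the enzyme results was not tested. The day 14 counts below stand beside 16.9% of all tested genes called higher and 14.9% lower. Of 17 tested erythroid markers 11 rose and 0 fell. Their summed CPM was 3861 to 4963 at day 14 off and 1366 to 2236 at day 14 on. At day 5 it was 1140 to 2543 off and 1496 to 3516 on. Of the 17, 3 were called higher off at day 5 and 0 lower, beside 0.371% and 0.113% of all genes. Their median log2 fold change was 2.67 at day 14 and 1.54 at day 5. At day 14 their mean log2 CPM was 6.43 to 6.59 off against 3.57 and 3.81 on. Their mean log2 CPM at day 5 was 3.62 and 4.86 off against 2.69 and 3.31 on, an order the sums did not have. No marker was at 0 in a whole group. Of 11 S phase and mitosis genes 10 rose and 0 fell (summed CPM 2135 to 2600 off and 1041 to 1044 on, with 1561 to 1566 off and 1162 to 1640 on at day 5). Of 13 genes of the mitochondrial genome 6 were called higher and 0 lower (10265 to 11080 off, 8479 to 8833 on). The off libraries lay wholly above the on libraries in 9 of the 13, beside 27.9% of all genes. They lay wholly below in 2, mt-Co1 and mt-Nd6, beside 24.6%. Granulocyte and neutrophil markers had 6 of 13 called lower and 0 higher (690 to 1013 off, 1132 to 2007 on), and no marker was at 0 in a whole group. Of the other marker lists, 3 of 8 monocyte and 1 of 4 mast cell genes fell and 0 rose. Megakaryocyte genes had 1 higher and 1 lower of 6, T and NK cell genes 1 higher and 2 lower of 6, and B cell genes 0 of 4 called. Of the 4 progenitor and sort genes 3 fell and 0 rose, and Kit read 30.9 to 36.4 CPM in the day 14 off libraries, against 88.9 and 98.1 on, with 40.3 and 43.3 off and 51.3 and 56.2 on among the day 5 libraries. Itgam, which encodes Cd11b, was present at 2.07 to 3.73 CPM off against 8.76 and 21.9 on, and on day 5 at 3.17 and 14.6 off against 3.08 and 6.74 on. The day 14 groups thus differed in erythroid, proliferative and sort-marker transcripts as well as in cycle enzymes.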

How the data were processed

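Libraries of polyA RNA were prepared by a QuantSeq 3′ kit and read single-end, per the labels' protocols. The table deposited by the authors holds raw counts for each Ensembl gene, not normalised. Alignment was by HISAT2 2.0.4 to mm10 as far as the submitters' processing notes name tools, which also include cutadapt 1.14, featureCounts of Subread 2.0.0, limma 3.48.3 and edgeR 3.34.0. The strand setting and annotation release were not given in the sources used here. Of the gene IDs, 52489 matched GENCODE M21 and 147 did not. The erythroid marker Hbb-b1 did not match, and Pc was matched under its GENCODE symbol Pcx.

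The main test was that of edgeR 4.0.16 under R 4.3.3 (filterByExpr by group, TMM, robust quasi-likelihood fit of 4 group means over 10 libraries, and a model of day plus state for both days), with limma 3.58.1 and DESeq2 1.42.0 as alternatives. Log2 CPM for correlations used a prior count of 2. The edgeR fit was tested on simulated data. Limits at a count of 0 (3 counts) cover counting error only.

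Members and gene lists were chosen with earlier results of these data known. All 9 enzymes and 9 further cycle genes are named throughout (1 more listed gene is not reported here and stands in no list count), up to 4 genes of smallest p at day 14 from other pathway lists, and the 3 protein-coding genes of mean log2 CPM of at least 4 most correlated with Cs, Suclg2 and Mdh2. Alternatives were RLE scaling, no filter, a filter of 5 CPM in 2 libraries, DESeq2, limma voom, a replicate block, fits of only the compared groups, removal of ribosomal RNA locus genes, counts thinned to the smallest library, and leaving out each library. Promoter sequences are RefSeq's, on GRCm38.p6.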

Additional observations from a re-analysis of the deposited data

Results flagged for a closer look

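In the day 14 off group, the log2 difference between Idh3g and Idh3a, subunits of the NAD-dependent isocitrate dehydrogenase, was 1.84 in replicate 3 and 1.22, 1.20 and 1.29 in replicates 1, 2 and 4. The gap of replicate 3 to the nearest other library was 0.865 of the group's range, above Dixon's 95% critical value for 4 samples. In that library Idh3g had its highest level, 66.7 CPM, and Idh3a its lowest of the group, 18.5 CPM. Chance flags about 1 in 20 groups. The rule was run on each subunit ratio and on the CPM of the 9 enzymes and 8 further cycle genes, and this was the only flag. A flag somewhere in such a search can arise by chance.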

How the results depend on the processing

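At day 14 the number of enzymes called was 4, and 2 with no low-count filter; leaving out 1 library gave 1 to 3, with 1 (Suclg2) without day 14 on replicate 1 and 2 without day 14 on replicate 2 or day 14 off replicate 1 or 2. Calls over all genes fell there too, from 31.8% to 19.3% with no filter, 17.8% and 19.5% without day 14 on replicate 1 or 2, and 24.6% and 25.0% without day 14 off replicate 1 or 2. Over both days the count was 1, beside 19.8% of all genes. It was 0 with RLE scaling (19.5%), 0 with the 5 CPM filter (22.7%) and 2 with no filter (14.4%). With DESeq2 it was 3 (25.4% of genes with an adjusted p) and with limma voom 2 (20.1%). Leaving out a day 14 off library gave 0 (13.6% to 15.7%). For the difference between days it was 0, beside 3.06% of all genes. It was 1 (Suclg2) with no filter (6.75%), DESeq2 (9.65% of genes with an adjusted p) or thinned counts (2.92%). Leaving out a day 14 off library gave 0 (0.672% to 2.11%). For day 14 against day 5 off it was 3 (17% of all genes). It was 1 without day 14 off replicate 1 or 2 (9.93% and 10.9%) and 2 without replicate 3 or 4 (13.5% and 11.6%). Calls of enzymes and of all genes were also lost without a day 5 off library, which left that group 1. The counts at day 5 and for day 14 against day 5 on were 0 under every alternative listed. Some of these called no gene at all, so their 0 carries no information on the enzymes: at day 5 limma voom, the fit of only the compared groups and the fits without day 14 off replicate 1 or 4, and for the on groups the fit of only the compared groups and the fit without day 14 on replicate 1. Fits of only the compared groups were not planned for the model of both days or the difference between days. Where a group kept a single library, its spread was taken from the rest.

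Signs turned for values near 0. Suclg1 at day 14 was -0.0028 with RLE scaling, -0.030 with the 5 CPM filter, -0.0030 with DESeq2 and -0.027 in the fit of only the compared groups. Idh3b at day 5 was -0.024 with the 5 CPM filter. Idh3a was -0.0020 with no filter and -0.012 with thinned counts for the difference between days, -0.00029 with limma voom and -0.0050 with thinned counts for day 14 against day 5 on, and -0.017 with thinned counts for day 14 against day 5 off. The cause was not tested. Leaving out 1 library gave, at day 14, -0.15 to 0.18 for Suclg1, and at day 5 -0.039 to 0.049 for Idh3b, -0.088 to 0.42 for Ogdh, -0.19 to 0.26 for Suclg2 and -0.040 to 0.32 for Mdh2. It gave -0.014 to 0.20 for Idh3g over both days, and -0.094 to 0.14 for Cs, -0.17 to 0.15 for Idh3a and -0.17 to 0.32 for Ogdh for the difference between days. For day 14 against day 5 it gave -0.13 to 0.20 for Idh3a and -0.13 to 0.22 for Mdh2 on, and -0.058 to 0.11 for Idh3a and -0.056 to 0.095 for Fh1 off.

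Same-numbered libraries of different groups deviated together in 10 of 12 pairs (r over 0.1, range 0.030 to 0.334). Each of the 8 libraries numbered 1 or 2 had its highest r across groups with a library of the same number. These counts hold repeats, because in a group of 2 libraries the deviations from the group mean mirror each other. Between day 14 on and day 5 on, for example, numbers 1 and 2 gave the same r of 0.334. The labels do not say what same-numbered libraries share. The main tests leave the numbers out, so any spread that goes with them is not accounted for there. With the replicate block the counts were 4 at day 14, 0 at day 5, 0 over both days, 1 for the difference between days (Suclg2, 1.24, edgeR adjusted p = 0.0170), 0 for day 14 against day 5 on and 3 off. Over all genes the block called 32.6%, 1.41%, 8.47% (19.8% without it), 9.56% (3.06% without it), 6.37% and 19.1% in that order. Mdh2, the gene called over both days, had a difference of 0.41 with the block (edgeR adjusted p = 0.113).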

Other observations

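Transcripts of the mitochondrial genome, which encode subunits of the respiratory chain and not of the cycle, had a different order of groups from Suclg2 and Mdh2. Their summed CPM was 8479 and 8833 in the day 14 on libraries and 10265 to 11080 in the day 14 off libraries, against 10364 and 12815 off and 10768 and 11893 on for day 5. By this sum the day 14 on libraries were the lowest, as for Fh1, while the day 14 off libraries were not above those of day 5. For mt-Co1 and mt-Nd6 the day 14 off libraries lay below the day 14 on libraries. Between day 5 and day 14 on, 11 of the 13 genes had their day 14 libraries wholly below those of day 5, beside 23.1% of all genes. EdgeR called 1 lower and 0 higher, beside 1.36% and 0.968% of all genes.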
